A study of Mus musculus with 2 samples.

Results

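The SLAM family is a group of immunoglobulin-type surface receptors of blood cells, encoded side by side on mouse chromosome 1. Its members were chosen by symbol: Slamf6, Slamf7, Slamf8, Slamf9, Cd48, Cd84 and Ly9, which are 7 of the 32589 features in the deposited count files. The set was put together with the corticosterone-to-vehicle ratios of these libraries already known, so those ratios are given as a description only. C57BL/6 mice were gavaged with vehicle or with corticosterone, a stress hormone of the glucocorticoid type, which the submitters use as a model of depression related to high glucocorticoid levels. From the prefrontal cortex of both groups, microglia (the brain's own macrophages) were isolated with the gate CD45low CD11b+ and profiled by single-cell RNA sequencing, with 1 library for vehicle and 1 for corticosterone. The labels do not give the age and sex of the mice, the dose, the duration or the number of animals behind a library. No difference between the 2 libraries could be tested, and every interval below is a 95% interval that covers counting error only.

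Most SLAM receptors bind a copy of themselves on a neighbouring cell, while Cd48 is a ligand of Cd244a held in the membrane by a lipid anchor. Several carry tyrosine motifs in the cytoplasmic tail that recruit the small adaptors SAP (Sh2d1a) and EAT-2 (Sh2d1b1, Sh2d1b2), and through them Src-type kinases; without an adaptor the same motifs can recruit inhibitory phosphatases. Slamf8 and Slamf9 have short tails that lack these motifs. In macrophages, Slamf1 has been linked to more, and Slamf8 to less, activity of the phagocyte NADPH oxidase.

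The genes are neighbours on chromosome 1, and neighbouring genes differed in direction. Start regions are printed for Slamf1 and for the members past 2-fold that had one, so the choice followed the ratio. RefSeq start regions on GRCm38.p6, from 250 bases before to 50 bases after the start, were found for 6 of the 7 members, and that of Ly9 was not among them. Each of those below was searched on both strands for 5 motifs: the interferon-stimulated response element core (GAAA, 2 further bases, GAAA), the gamma-activated site TTCNNNGAA, the PU.1 core GAGGAA, the kappa B site and the glucocorticoid response element (AGAACA, 3 further bases, TGTTCT). Capitals mark a match. Slamf8 had the highest corticosterone-to-vehicle ratio of the set, Slamf9 and Slamf6 also differed by more than 2-fold, and Slamf1, a SLAM receptor outside the set, went the other way.
Slamf8 (minus strand, chr1:172590519-172590818): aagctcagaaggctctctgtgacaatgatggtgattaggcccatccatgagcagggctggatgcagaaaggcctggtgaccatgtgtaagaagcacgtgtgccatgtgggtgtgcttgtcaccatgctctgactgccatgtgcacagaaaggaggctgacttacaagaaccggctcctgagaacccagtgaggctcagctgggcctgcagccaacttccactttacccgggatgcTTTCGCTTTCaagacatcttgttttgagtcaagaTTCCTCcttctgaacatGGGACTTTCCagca
Slamf9 (plus strand, chr1:172475110-172475409): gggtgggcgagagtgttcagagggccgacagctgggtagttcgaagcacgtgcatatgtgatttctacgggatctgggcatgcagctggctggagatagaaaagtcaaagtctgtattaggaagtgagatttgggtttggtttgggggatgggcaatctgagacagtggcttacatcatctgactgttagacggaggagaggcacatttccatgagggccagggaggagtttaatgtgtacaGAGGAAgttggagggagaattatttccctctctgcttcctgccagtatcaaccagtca
Slamf6 (plus strand, chr1:171917212-171917511): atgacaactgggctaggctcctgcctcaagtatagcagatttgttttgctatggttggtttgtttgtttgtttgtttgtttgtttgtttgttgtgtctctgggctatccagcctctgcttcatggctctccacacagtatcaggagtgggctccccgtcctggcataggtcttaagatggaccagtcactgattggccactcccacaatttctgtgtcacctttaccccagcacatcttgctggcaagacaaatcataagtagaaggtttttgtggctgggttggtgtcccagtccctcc
Slamf1 (plus strand, chr1:171766882-171767181): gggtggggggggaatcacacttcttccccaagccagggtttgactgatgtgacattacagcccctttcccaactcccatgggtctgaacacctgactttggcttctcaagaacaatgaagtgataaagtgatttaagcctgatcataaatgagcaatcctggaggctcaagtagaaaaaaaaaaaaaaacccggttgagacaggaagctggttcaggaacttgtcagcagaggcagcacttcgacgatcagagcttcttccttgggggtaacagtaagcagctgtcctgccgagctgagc
The Slamf8 region held 3 matches. The response element core lay on the strand opposite to the gene, from position -15 counted from the start site, the PU.1 core lay on the opposite strand from position 20, and the kappa B site, the last run of capitals, lay on the same strand from position 37. The 3 did not overlap. The Slamf9 region held a PU.1 core on its own strand from position -8, and the Slamf6 and Slamf1 regions held none of these letters. The regions not printed were searched in the same way. That of Cd84, whose ratio was nearly level, held a PU.1 core on the opposite strand from position 12. Those of Cd48 and Slamf7 held none of these letters. That of Cd244a, which is outside the set, held a PU.1 core on its own strand from position 5. Of 32851 RefSeq start regions of the same length, 3.44% held the response element core, 8.30% the gamma-activated site, 28.3% the PU.1 core, 0.155% the kappa B site and 0.00913% the glucocorticoid response element. A match describes letters and not binding.

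After removal of barcodes under 500 UMIs (molecular tags, each counting a captured transcript) or under 300 genes, or with over 20% mitochondrial UMIs, 10500 of 10555 vehicle barcodes and 17883 of 18113 corticosterone barcodes were kept. They held 49325067 and 85103539 UMIs, with a median of 3220.5 and 3961 UMIs per cell, and 104 barcodes occurred in both libraries. Mitochondrial UMIs made up a median of 2.67% (vehicle) and 4.20% (corticosterone) of a cell's total, and their part in the results was not tested. Clusters were made without the SLAM family genes and named from marker genes. Microglia-like cells were 75.9% of vehicle cells (7972) and 85.4% of corticosterone cells (15274). They lay in different clusters, since cluster 1 held 7368 of the vehicle cells and clusters 0 and 2 held 8746 and 5677 of the corticosterone cells, so the 2 libraries stood apart over the whole class. Within microglia-like cells the 10 microglia markers summed to 36488 and 33080 CPM (UMIs per 1e6 UMIs of the class). Among markers of lymphocytes, in which this family is best known, those of T and NK cells were close to absent there. The 10 T cell markers summed to 1.33 and 0.922 CPM with 7 and 5 of them at 0, and the 8 NK cell markers to 0.302 and 0.0559 with 5 and 6 at 0. The 8 B cell markers summed to 41.9 and 28.1 with 2 at 0 in each library, the 10 neutrophil markers to 920 and 690, with none at 0, and the 10 border-associated macrophage markers to 100.5 and 39.7. Other sets were higher in corticosterone, as the SLAM members were: the 7 plasmacytoid dendritic cell markers summed to 353 and 516 CPM with 1 at 0 in each library, the 10 dendritic cell markers to 71.3 and 104.7, and the 10 monocyte markers to 19.7 and 29.0, with none at 0. The part of these other transcripts in the results was not tested.

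In microglia-like cells the transcripts of the self-binding receptors Slamf6 and Ly9 and of the short-tailed receptors Slamf8 and Slamf9 were more than 2-fold more abundant in the corticosterone library, Cd48 was 1.54-fold more abundant, and Cd84 was nearly level. Values are UMIs summed over the class and scaled to 1e6 UMIs of the class (CPM). They are not corrected for transcript length, so levels are compared within a gene and not between genes.

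Slamf6, a self-binding receptor with the tyrosine motifs, stood at 30.9 CPM (1022 UMIs, interval 29.0 to 32.9) in the vehicle library and 66.9 CPM (4787 UMIs, interval 65.0 to 68.8) in the corticosterone library. Its ratio was 2.16-fold, a log2 ratio of 1.11 (1.02 to 1.21). Ly9, also a self-binding receptor with these motifs, stood at 28.7 CPM (949 UMIs) and 70.6 CPM (5053 UMIs), a log2 ratio of 1.30, or 2.46-fold (2.30 to 2.64). Both genes were thus higher in the corticosterone library with intervals that did not overlap. Cd84, which belongs to the same structural group, had 271 CPM (8961 UMIs) in vehicle and 305 CPM (21792 UMIs) in corticosterone, a log2 ratio of 0.17 (0.13 to 0.20). Slamf7, a self-binding receptor of lymphocytes and plasma cells, was barely detected, at 0.605 CPM (20 UMIs) and 1.05 CPM (75 UMIs). Its log2 ratio of 0.79 had a wide interval of 0.07 to 1.58, and over all cells that passed the filter the ratio was on the other side of 0, at -0.21.

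Cd48, the ligand of Cd244a, stood at 159 CPM (5253 UMIs) in vehicle and 244 CPM (17496 UMIs) in corticosterone, a log2 ratio of 0.62 (0.58 to 0.67). Slamf8 stood at 16.7 CPM (551 UMIs) in vehicle and 46.9 CPM (3356 UMIs) in corticosterone, which is 2.81-fold (2.57 to 3.09) and a log2 ratio of 1.49 (1.36 to 1.63). Slamf9 stood at 113 CPM (3744 UMIs) and 233 CPM (16670 UMIs), a log2 ratio of 1.04 (0.99 to 1.09). The Slamf9 ratio was the nearest to 2-fold of the members past it, and its lower bound fell short of 2-fold.

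Among 9675 genes with a mean of at least 5 CPM in microglia-like cells, 217 (2.24%) were at least 2-fold higher in corticosterone and 196 (2.03%) at least 2-fold lower. Under DESeq2 size factors, which moved the median of all genes from -0.01 to 0.10, these shares were 2.85% and 1.59%. Of the 7 members, 6 met this minimum, and Slamf7 was the one below it. Slamf6, Slamf8, Slamf9 and Ly9 were at least 2-fold higher and 0 were at least 2-fold lower. The median log2 ratio of the 6 members was 1.08, beside -0.01 over all genes measured. Without the barcodes that occur in both libraries, 4 members were again past 2-fold. Since the set was chosen with this contrast known, nothing is read from that count. Slamf8 had a higher log2 ratio than 99.0% of the measured genes, Ly9 than 98.7%, Slamf6 than 98.2%, Slamf9 than 97.9%, Cd48 than 94.7% and Cd84 than 72.2%.

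**Figure D1:**
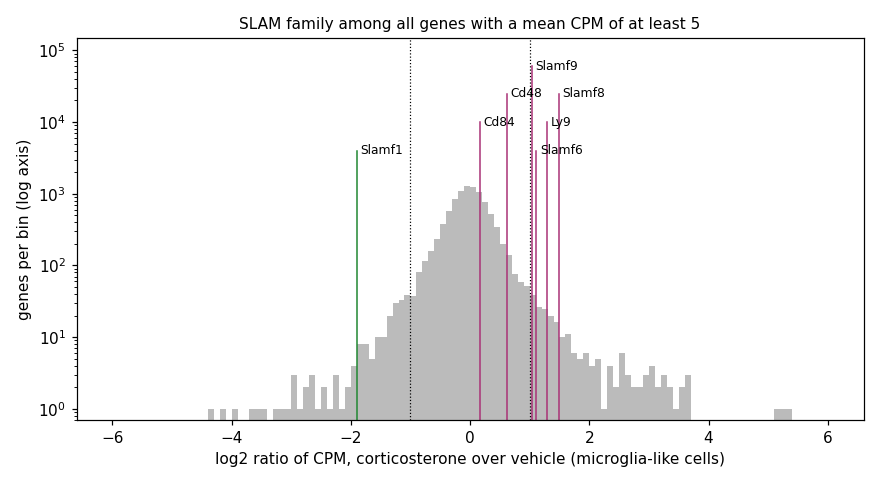
Histogram of the log2 ratio of CPM, corticosterone over vehicle, for the 9675 genes with a mean of at least 5 CPM in microglia-like cells, with the number of genes per bin on a log axis. Purple lines mark 6 SLAM family members, between 0.17 (Cd84) and 1.49 (Slamf8), the green line marks Slamf1 at -1.90, and dotted lines mark 2-fold.

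The other receptors of the family did not share one direction. Slamf1, a self-binding receptor that also takes up bacteria into macrophages, was lower in the corticosterone library, at 2.99 CPM (214 UMIs) against 11.1 CPM (368 UMIs) in vehicle. Its log2 ratio was -1.90 (-2.15 to -1.65), and only 0.341% of the measured genes had a lower one. Slamf1 met the minimum of 5 CPM only through the vehicle library, where it was higher, so nothing is read from that rank. Cd244a, the receptor of Cd48, was at low levels, with 1.66 CPM (55 UMIs) in vehicle and 3.62 CPM (259 UMIs) in corticosterone, a log2 ratio of 1.12 (0.70 to 1.57). Cd2, another partner of Cd48, had 0 UMIs in the microglia-like cells of both libraries, which allows up to 0.0907 CPM in vehicle and 0.0419 CPM in corticosterone.

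The adaptors that link these receptors to kinases were scarce in microglia-like cells. Sh2d1a (SAP) had 0 UMIs in vehicle and 1 in corticosterone, and Sh2d1b2 had 0 in both. Sh2d1b1, which encodes EAT-2, had 2.36 CPM (78 UMIs) and 4.26 CPM (305 UMIs), a log2 ratio of 0.85 (0.49 to 1.23). None of the 3 reached the minimum of 5 CPM. Of 14 kinases, phosphatases and effectors of SLAM signalling, 12 met the minimum, with a median log2 ratio of 0.10. In this list 0 were at least 2-fold higher and 1 at least 2-fold lower: Plcg1, a phospholipase, had the lowest ratio, at 36.1 CPM in vehicle and 17.2 in corticosterone, a log2 ratio of -1.07 (-1.18 to -0.95). The Src-type kinase Fgr had the highest, at 4.08 and 6.46 CPM, a log2 ratio of 0.66 (0.38 to 0.95). Fgr was below 5 CPM in vehicle and met the minimum only through the corticosterone library, where it was higher. Nothing is therefore read from its rank.

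The 10 genes listed as partners of Slamf1 and Slamf8 at the phagosome comprise the class III lipid kinase complex and the NADPH oxidase. All 10 met the minimum, with a median log2 ratio of -0.01. Only Cybb, the catalytic subunit of the oxidase, was past 2-fold, at 7.62 CPM (252 UMIs) in vehicle and 263 CPM (18834 UMIs) in corticosterone, a log2 ratio of 5.11 (4.93 to 5.30). The other 9 were within 2-fold, the lowest being Uvrag, a subunit of the lipid kinase complex, at -0.25 (-0.33 to -0.18).

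The share of cells with a UMI was compared after each microglia-like cell had been thinned to 1000 UMIs, which left 7377 vehicle and 15179 corticosterone cells and left out 595 and 95 with fewer. Slamf6 was seen in 3.16% of thinned vehicle cells (2.77 to 3.58), in 6.54% of thinned corticosterone cells (6.15 to 6.95), and in 10.3% and 23.5% of cells without thinning. For Ly9 the thinned shares were 2.74% and 6.32%, for Slamf8 1.53% and 4.43%, for Slamf9 10.04% and 19.6%, for Cd48 14.4% and 21.2%, and for Cd84 23.1% and 25.7%. Each of these 6 members was seen in a larger share of corticosterone than of vehicle cells, and this was not counted over all genes. The set was chosen with the contrast between the libraries known, so nothing is read from that count. Slamf7 was seen in 0.0271% and 0.0791%, too few cells to read. Without thinning, the shares were 8.94% and 21.8% for Ly9, 5.81% and 16.8% for Slamf8, 29.6% and 54.2% for Slamf9, 37.4% and 57.7% for Cd48, and 54.2% and 66.5% for Cd84, at median depths of 3195 and 4003 UMIs.

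Free RNA in the droplets gives UMIs in cells that do not make a transcript, so the same shares are given for neutrophil-like cells (339 vehicle and 390 corticosterone cells that reached this depth, of 434 and 397 with median depths of 2784.5 and 3724 UMIs). There Slamf6 was seen in 1.77% (0.652 to 3.81) and 1.28% (0.418 to 2.97), Slamf8 in 0.295% and 0.769%, Slamf9 in 3.24% and 4.62%, Cd48 in 7.96% and 6.41%, Cd84 in 20.1% and 22.3%, and Ly9 in 1.18% and 1.28%. The microglial shares of Slamf6, Slamf8 and Ly9 in vehicle, and of Cd84 in both libraries, lay within the intervals of the neutrophil-like cells. Those of Slamf6, Slamf8 and Ly9 in corticosterone, and of Slamf9 and Cd48 in both libraries, lay above them. In erythroid-like cells, 2 of 123 vehicle and 2 of 81 corticosterone cells had a Slamf8 UMI, which is 1.63% and 2.47%. Ly9 was seen there in 0.813% and 6.17%, and Cd84 in 26.8% and 19.8%. The median of 4 microglia genes (P2ry12, Tmem119, Sall1 and Siglech) was 0.782 and 0.856 of the microglia-like level in erythroid-like cells, and 0.556 and 0.357 in neutrophil-like cells. In the neutrophil cluster led by Clec4d and Cxcr2 it was 0.715 and 0.537, while Cd84 stood at 1.21 and 1.13 of its microglia-like level. Whether neutrophil-like cells make these members themselves was not tested, so their shares do not measure free RNA.

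At 1000 UMIs, 55.6% of vehicle and 39.8% of corticosterone microglia-like cells had a UMI of none of the 7 members. Cells with UMIs of exactly 2 members were 8.54% and 16.5%, and cells with exactly 3 were 0.908% and 3.12%. On average 0.550 members were seen in a vehicle cell and 0.839 in a corticosterone cell.

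Across the other cell classes the members followed separate patterns. Border-associated macrophage-like cells, marked by Lyve1, Cd163 and Pf4, numbered 1033 in vehicle and 795 in corticosterone. All 6 members measured there were above a log2 ratio of 0, as were 50.7% of all genes measured there. Since the set was chosen with the contrast between the libraries known, nothing is read from that count. Slamf8 stood at 12.7 CPM and 27.2 CPM, a log2 ratio of 1.10 (0.77 to 1.43), and was the single member at least 2-fold higher. Of 9744 genes measured in these cells, 2.81% were at least 2-fold higher in corticosterone and 1.79% at least 2-fold lower, and 0 members were 2-fold lower. Slamf9 had a log2 ratio of 0.80 (0.67 to 0.92), Ly9 of 0.72 (0.49 to 0.96), Slamf6 of 0.66 (0.42 to 0.89), Cd48 of 0.52 (0.43 to 0.61) and Cd84 of 0.12 (0.04 to 0.21). Of these 6, Cd48 was the one with a higher level in these cells than in microglia-like cells of the same library, at 197 CPM (vehicle) and 281 CPM (corticosterone), 1.24-fold (1.18 to 1.30) and 1.15-fold (1.10 to 1.21). For Slamf6, Slamf8, Slamf9 and Ly9 the levels in corticosterone were 0.661, 0.581, 0.716 and 0.655 of those in microglia-like cells, while the 4 microglia genes stood at a median of 0.653.

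Slamf7 stood apart from the other members by class. A cluster of 220 vehicle and 151 corticosterone cells met the marker rule for monocyte-like cells on 3 markers, but its leading genes were the MHC class II genes H2-Eb1, H2-Aa and H2-Ab1, which present antigen, so it is called cluster 7 here. In it, Slamf7 stood at 29.1 CPM (48 UMIs) in vehicle and 24.0 CPM (32 UMIs) in corticosterone, 48.2-fold (28.1 to 85.7) and 22.9-fold (14.6 to 35.0) the level of microglia-like cells. A clustering with genes centred within each library separated the class II cells (160 and 96, left unnamed) from monocyte-like cells (39 and 67). Slamf7 was then at 34.6 CPM (48 UMIs) and 29.8 CPM (27 UMIs) in the class II cells, and had 0 and 3 UMIs in the monocyte-like cells. The interval of its log2 ratio between the libraries in the class II cells included 0, at -0.21 (-0.95 to 0.49). In neutrophil-like cells Slamf7 had 2 UMIs in each library.

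The other members in the class II cells lay on either side of the microglia-like level. Slamf9 stood at 151 CPM and 309 CPM, 1.34-fold (1.16 to 1.54) and 1.33-fold (1.17 to 1.49) that level, and Cd48 was 1.35-fold (1.20 to 1.52) and 1.17-fold (1.03 to 1.32). Slamf6 was 0.955-fold (0.681 to 1.31) in vehicle and 0.643-fold (0.457 to 0.881) in corticosterone, and Cd84 0.927-fold (0.831 to 1.03) and 0.869-fold (0.762 to 0.987). The intervals of Slamf8 (17.3 CPM and 49.6 CPM) and Ly9 (28.1 CPM and 62.9 CPM) included an equal level in both libraries. The 4 microglia genes stood at 0.806 and 0.686 of the microglia-like level in these cells. Cd244a stood at 18.0 CPM (4 UMIs) and 47.2 CPM (26 UMIs) in the monocyte-like cells of the centred clustering, and at 17.2 CPM (22 UMIs) and 24.3 CPM (31 UMIs) in the neutrophil cluster led by Clec4d and Cxcr2. In cluster 7 it stood at 3.64 CPM (6 UMIs) and 26.9 CPM (36 UMIs). In the monocyte-like cells of the centred clustering the 4 microglia genes stood at 0.641 and 0.270 of the microglia-like level.

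Neutrophil-like cells (434 and 397) held less of most members. Slamf6 stood at 17.0 CPM (39 UMIs) in vehicle and 14.0 CPM (33 UMIs) in corticosterone, a ratio of 0.822-fold (0.501 to 1.34), and Cd48 at 121 CPM and 106 CPM, a ratio of 0.873-fold (0.733 to 1.04). Both intervals include an equal level, unlike those of the same genes in microglia-like cells, and the difference between the classes was not tested. In neutrophil-like cells the 4 microglia genes stood at 0.556 (vehicle) and 0.357 (corticosterone) of the microglia-like level. The part of free RNA in these library ratios was not tested. Ly9 stood at 14.9 and 31.0 CPM, and Slamf8 had 16 and 39 UMIs. In the neutrophil cluster led by Camp and Ngp, Slamf9 was at 0.438 and 0.135 of the microglia-like level, while the 4 microglia genes were at 0.349 and 0.142. Cd84 in the same cluster was at 0.648 (0.555 to 0.752) and 0.468 (0.397 to 0.549), and in the cluster led by Clec4d and Cxcr2 at 1.21 (1.09 to 1.33) and 1.13 (1.03 to 1.25), where the microglia genes stood at 0.715 and 0.537. Slamf1 had 8.31 CPM in vehicle neutrophil-like cells and 0 UMIs in corticosterone, which allows up to 1.27 CPM.

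In the corticosterone library the order of the classes differed from member to member. Slamf6 was highest in microglia-like cells (66.9 CPM) and lowest in neutrophil-like cells (14.0 CPM), and the levels between them, 46.5 in erythroid-like cells, 46.5 in the unnamed cluster 4, 44.2 in macrophage-like and 38.2 in the class II-led cluster 7, had overlapping intervals. That of the erythroid-like cells (28.0 to 72.7) also overlapped the microglia-like level. Ly9 ran from 70.6 in microglia-like through 61.2 in erythroid-like and 59.1 in cluster 7, which overlapped, to 31.0 CPM in neutrophil-like cells. Slamf8 was at 48.6 in cluster 7 and 46.9 in microglia-like cells, which overlapped, and lowest in neutrophil-like cells at 16.6 CPM. Slamf9 was at 233 in microglia-like cells and 221 in cluster 7, which overlapped, and among these classes lowest in neutrophil-like cells at 87.1 CPM. The level of cluster 7 hides a spread. In the centred clustering Slamf9 was at 309 CPM in the class II cells and at 79.9 CPM (44 UMIs) in the monocyte-like cells. Cd48 was at 311 in cluster 7, 281 in macrophage-like, 244 in microglia-like and 106 CPM in neutrophil-like cells, and the intervals of the first pair overlapped. Cd84 was highest in the unnamed cluster 4, whose cells had few UMIs (medians of 1089 and 1261.5). There it stood at 375 CPM (vehicle) and 527 CPM (corticosterone), a log2 ratio of 0.49 (0.34 to 0.65), while in microglia-like, macrophage-like, erythroid-like and neutrophil-like cells and cluster 7 its corticosterone levels lay between 252 and 305 CPM. The neutrophil-like level joins 345 CPM in the cluster led by Clec4d and Cxcr2 with 143 CPM in that led by Camp and Ngp, and the monocyte-like cells of the centred clustering were at 207 CPM.

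**Figure D2:**
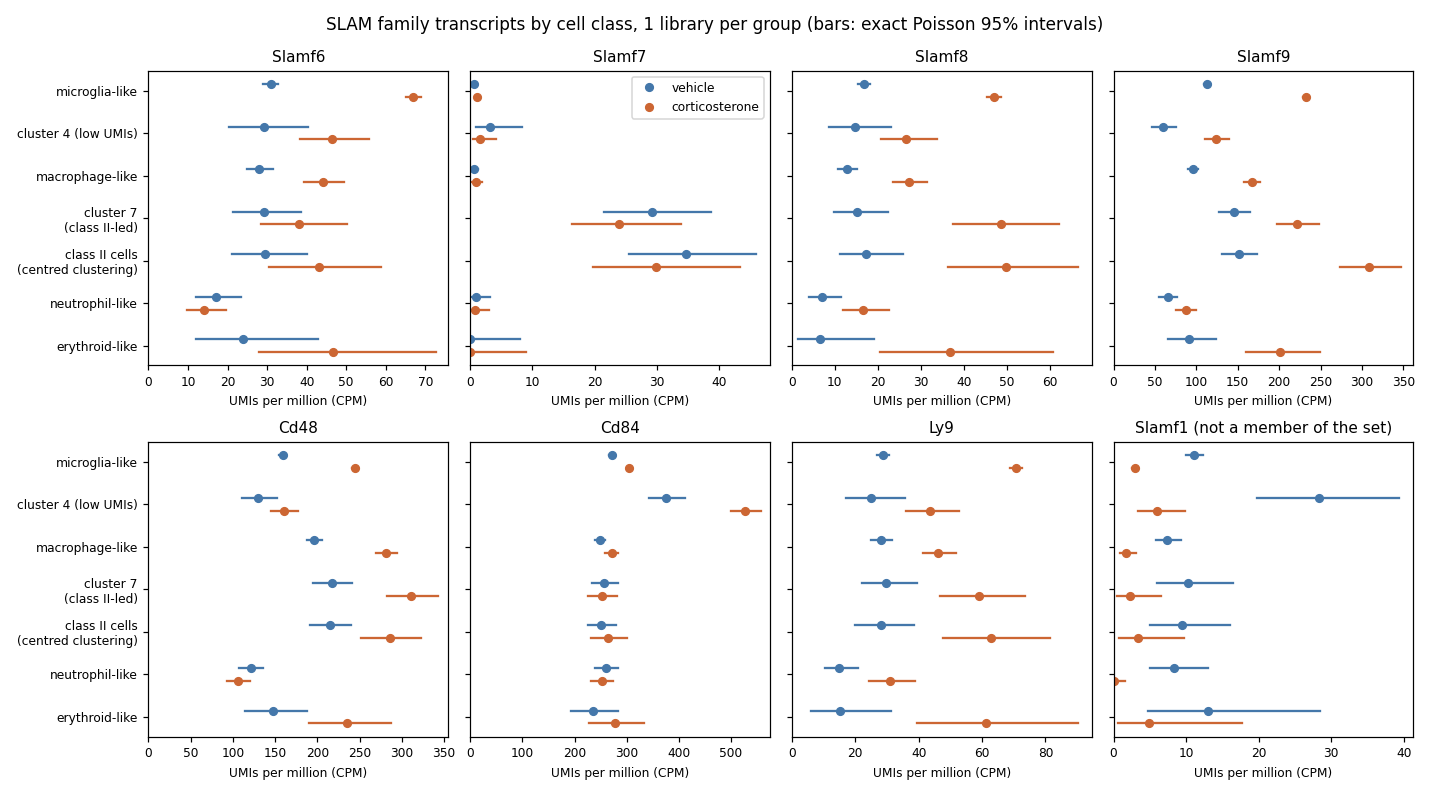
Level of the 7 members and of Slamf1 in CPM (horizontal axis, from 0) in each class of cells, for the vehicle (blue) and corticosterone (orange) library; points are summed UMIs as CPM and bars exact Poisson 95% intervals. Slamf7 is highest in cluster 7 and in the class II cells of the centred clustering (24.0 to 34.6 CPM), and Slamf1 is the gene whose orange points lie to the left in microglia-like cells.

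Microglia-like cells were divided further into 6 sub-clusters after centring genes within each library, again without the family genes. Of the 6 members measured at 5 CPM, Slamf8 had the largest ratio of a sub-cluster to the main one. In the sub-cluster led by Lpl and Lgals3, genes of lipid handling and of reactive microglia, with 80 vehicle and 188 corticosterone cells, Slamf8 stood at 79.3 CPM (vehicle) and 109.6 CPM (corticosterone). In the main sub-cluster, led by the immediate early genes Nr4a1 and Egr3 (4879 and 9262 cells), it stood at 15.8 CPM and 42.5 CPM. The first level was 5.03-fold (3.33 to 7.34) the second in vehicle and 2.58-fold (2.12 to 3.12) in corticosterone. Between the libraries, Slamf8 was 1.38-fold higher in corticosterone in the Lpl-led sub-cluster, with an interval (0.912 to 2.16) that includes an equal level. In the main sub-cluster that ratio was 2.69-fold (2.42 to 3.00). In the sub-cluster led by the interferon-stimulated genes Ifit3 and Isg15 (156 and 841 cells), Slamf8 stood at 24.4 CPM and 83.5 CPM, 1.55-fold (0.893 to 2.51) and 1.97-fold (lower bound 1.76) the main sub-cluster. That sub-cluster was 1.96% of vehicle and 5.51% of corticosterone microglia-like cells. Without it 4 members were at least 2-fold higher, beside 2.12% of all genes measured. Nothing is read from that count, since the set was chosen with this contrast known. The part of this sub-cluster in the library ratios was not tested.

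Ly9 in the Lpl-led sub-cluster stood at 41.0 CPM (vehicle) and 121 CPM (corticosterone), 1.43-fold (0.797 to 2.38) and 1.77-fold (1.47 to 2.12) the main sub-cluster. In the interferon-led sub-cluster Ly9 stood at 28.7 CPM and 65.8 CPM, beside 28.7 CPM and 68.5 CPM in the main one. Slamf6 in the Lpl-led sub-cluster was 1.23-fold (0.670 to 2.08) the main sub-cluster in vehicle and 0.943-fold (0.723 to 1.21) in corticosterone. Slamf9 there was 1.43-fold (1.09 to 1.85) in vehicle and 0.974-fold (0.851 to 1.11) in corticosterone. Between the libraries, Slamf6 was 1.60-fold (0.885 to 3.09) in the Lpl-led and 1.37-fold (0.938 to 2.07) in the interferon-led sub-cluster. Both intervals include an equal level, while in the main sub-cluster the ratio was 2.08-fold (1.93 to 2.25). Cd48 was 1.39-fold (1.10 to 1.74) and 1.28-fold (1.14 to 1.43) higher in the Lpl-led sub-cluster. Cd84 was lower in the interferon-led sub-cluster of corticosterone, at 251 CPM against 300 CPM, 0.839-fold (0.790 to 0.892), while in vehicle it was 1.05-fold (0.906 to 1.21). In the sub-cluster led by Cmss1 and Klf4 (2557 and 4766 cells) the 6 members were between 0.905-fold and 1.18-fold of the main sub-cluster. In the sub-cluster led by the neutrophil genes Ngp and Camp (285 and 214 cells) Slamf6 was 0.830-fold (0.504 to 1.29) and 1.33-fold (1.04 to 1.68), and Slamf8 0.984-fold (0.504 to 1.74) and 1.31-fold (0.959 to 1.75). A group of 15 and 3 dividing cells, led by Mki67, is given for Slamf7 alone. Slamf7 rested on few UMIs throughout. It stood at 5.82 CPM (6 UMIs) in the Lpl-led sub-cluster of corticosterone, 6.85-fold (2.38 to 16.2) the main sub-cluster, and at 19.8 CPM (3 UMIs) in the 15 dividing vehicle cells, 38.9-fold (7.12 to 142).

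**Figure D3:**
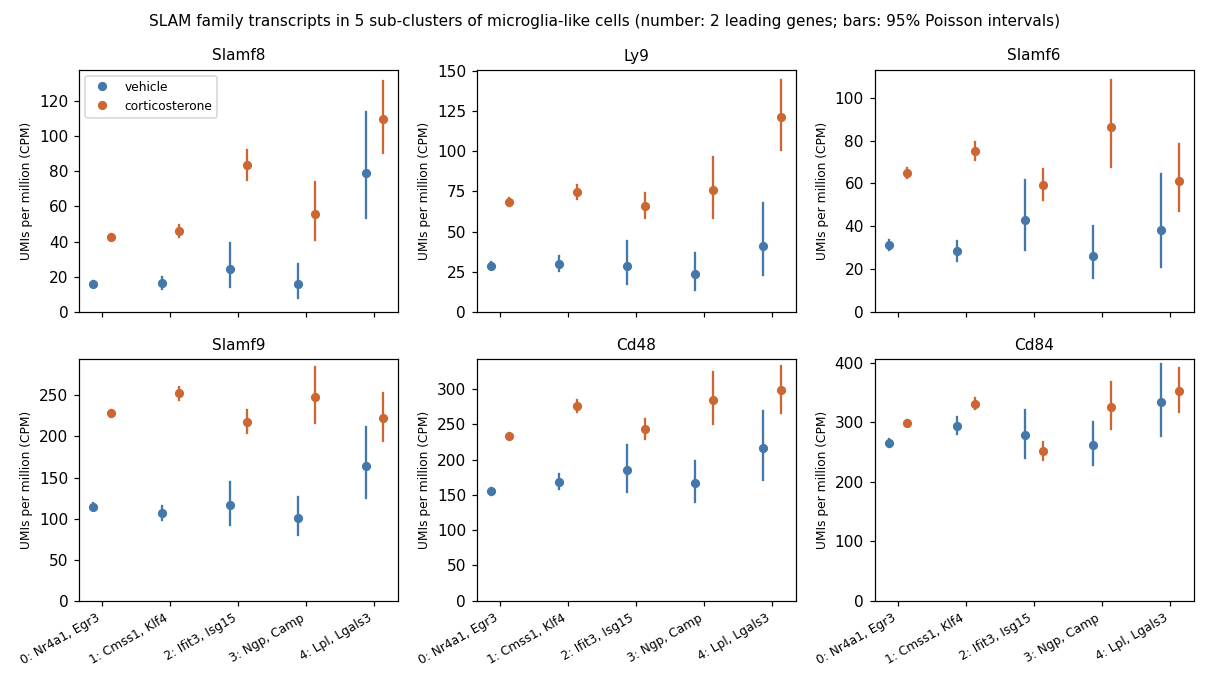
Level in CPM (vertical axis, from 0) of 6 members in 5 sub-clusters of microglia-like cells, each named by its number and 2 leading genes, in the vehicle (blue) and corticosterone (orange) library, with 95% Poisson intervals. Slamf8 is highest in the Lpl-led sub-cluster of both libraries (79.3 and 109.6 CPM), and Cd84 is the member whose points lie closest together.

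The 7 members span 1001.95 kb of chromosome 1 (GRCm38, GENCODE M21 annotation). Ly9 (chr1:171588624-171607410, minus strand) lies inside the span of Cd244a on the other strand, and the 2 share 0 exon bases. Then follow Slamf7 (chr1:171632403-171653035, minus), Cd48 (chr1:171682009-171705258, plus), Slamf1 (chr1:171767127-171801184, plus), Cd84 (chr1:171839697-171890718, plus) and Slamf6 (chr1:171917515-171953170, plus). A gap of 522 kb separates Slamf6 from Slamf9 (chr1:172475358-172478575, plus) and Slamf8 (chr1:172581758-172590568, minus). Slamf7 shares 423 exon bases with the antisense gene Gm37787, and since strand use in the counting is not given in the sources used here, reads of the 2 cannot be told apart.

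Direction did not follow position along this stretch. Slamf1, at a log2 ratio of -1.90, lies between Cd48 at 0.62 and Cd84 at 0.17. Of 40 other annotated genes between the outermost members, 27 are in the files and 12 met the minimum of 5 CPM in microglia-like cells. Of these 12, 4 were at least 2-fold higher in corticosterone, 0 at least 2-fold lower and 8 within 2-fold, with a median log2 ratio of 0.33, beside the 2.24% of all genes past 2-fold higher. The 4, named after their values were seen, were the potassium channel genes Kcnj10 (from 3.08 CPM in vehicle to 29.7 CPM in corticosterone, log2 ratio 3.27) and Kcnj9 (1.84 to 15.9 CPM, 3.11), Igsf8 (38.9 to 79.2 CPM, 1.02) and Tagln2 (64.5 to 153 CPM, 1.25). Kcnj9 and Kcnj10 were below 5 CPM in vehicle and met the minimum only through the corticosterone library, where they were high. For that reason nothing is read from the count of 4. Kcnj9, Kcnj10 and Igsf8 lie in the gap between Slamf6 and Slamf9, and Tagln2 lies between Slamf9 and Slamf8. The lowest of the 12 was Vangl2, at -0.38.

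**Figure D4:**
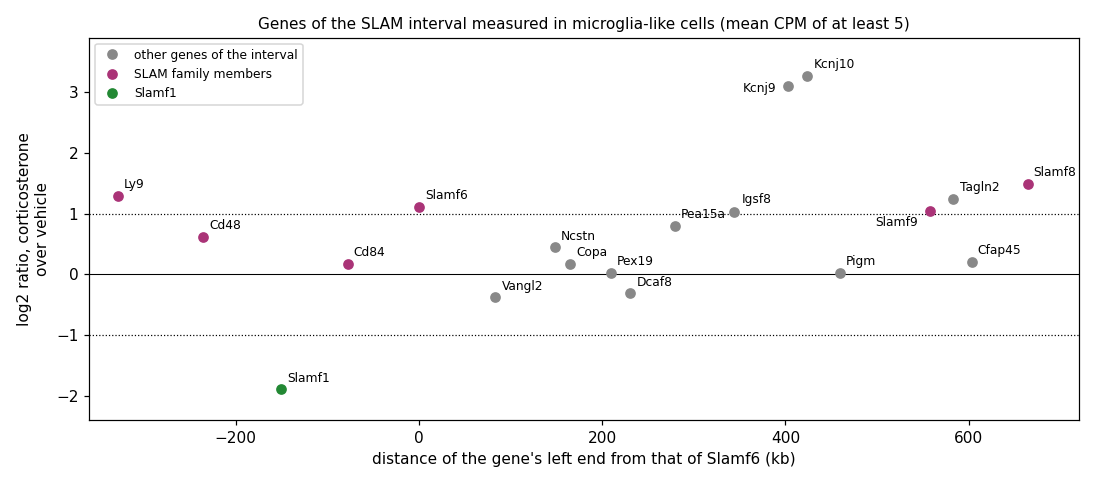
Log2 ratio of CPM in microglia-like cells, corticosterone over vehicle (vertical axis), against the distance in kb of each gene's left end from that of Slamf6 (horizontal axis), for genes with a mean of at least 5 CPM; purple points are members, green is Slamf1, grey are the other genes, dotted lines mark 2-fold. Slamf1 is the single point below -1, and Kcnj9 and Kcnj10 are above 3.

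The likeness of other genes to each member was described by Pearson's r of log2(CPM + 1) over 12 profiles, made of 6 groups of cells in each library, among 6680 genes with a mean of at least 20 CPM. Profiles of a library share its depth and free RNA, so r is a description. Slamf8 and Ly9 were each other's nearest gene, with r = 0.987. The next for Slamf8 were AI506816 (0.966) and Ifi30 (0.949), a lysosomal thiol reductase of antigen processing, and the next for Ly9 were Pdia6 and Ifi30 (0.963 each). Slamf6 was most like Sowahc (0.954), P2ry6 (0.951), a nucleotide receptor of microglia, and Pld4 (0.949). For Slamf9 the nearest were H2-DMa (0.973), which loads peptide on class II molecules, Ctsh (0.969) and Tmem176a (0.965). Cd48 was nearest to Rpl3 (0.966), Timm23 (0.959) and Npc2 (0.958), and Cd84 to Gmds (0.974), Arhgap25 (0.973) and Scaf4 (0.971).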

How the data were processed

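Raw UMI counts per gene and barcode were deposited by the authors, as the whole numbers in the files show, 1 matrix for each library. Base calls came from bcl2fastq 2.19 and the build was GRCm38, per the submitters' processing notes; the aligner, counter, annotation and cell calling are not given in the sources used here. The files are named wild type and depression, and each was tied to its vehicle or corticosterone label through the sample record. Of rows that repeat a symbol (52), none was a member.

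Cells were filtered as stated, scaled to 10000 UMIs and clustered (scanpy 1.11.5, leidenalg 0.10.2; 2000 variable genes without the SLAM family, 30 components, 15 neighbours, resolution 0.5). To be called X-like, a cluster needed 3 markers of a class, each seen in 10% of its cells and 2-fold above other cells of the library that holds most of it. Failing that, it was microglia-like if 3 microglia markers were seen and their mean reached 0.5 of that over all cells. It stayed unnamed when it met neither rule, or when another class had more markers among its top 10 genes. A cluster with UMIs under 33.3% of its library's median also stayed unnamed if those 10 genes held no marker of its class. That within-library comparison and these thresholds, the centred clustering and the sub-clusters (1500 variable genes, 20 components, resolution 0.4) were chosen after the data had been seen. Cluster 4 (645 and 1162 cells, low UMIs) stayed unnamed, and endothelial-like cells (41 and 21) were under the minimum of 50. The monocyte-like cells of the centred clustering (39 and 67) were under that minimum in vehicle and are given as an exception. Scrublet called 0 cells in either library, which was taken as not having worked, so no doublets were removed.

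UMIs were summed by class and library and scaled to CPM. Intervals are exact Poisson for sums and ratios and exact binomial (Clopper-Pearson) for shares; a count of 0 allows up to 3 counts. With 1 library per group no test was run. The members and gene lists were chosen with earlier results of these data known. Named were every member, each other receptor and adaptor, the highest and lowest gene of each list, and the 3 genes most like each member. Scaling by edgeR 4.0.16 and DESeq2 1.42.0 factors served as alternatives (R 4.3.3). The calculation was tested on simulated data.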

Additional observations from a re-analysis of the deposited data

How the results depend on the processing

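There were 16 alternatives of scaling, filters, clustering and choice of cells, 3 of them chosen after the data had been seen. Each time 4 members were at least 2-fold higher and 0 at least 2-fold lower in corticosterone. All but the alternative of all cells that passed the filter took cells called microglia. Among all genes measured, between 2.05% and 4.99% were at least 2-fold higher in these settings. Since the set was chosen with this contrast known, nothing is read from the count of members. The median log2 ratio of the members was 1.08 and ranged from 1.04 to 1.19. It was 1.16 with edgeR TMM factors, 1.19 with DESeq2 size factors and 1.16 as the mean of each cell's own CPM. The scalings moved the median of all genes from -0.01 to 0.08 and 0.10, and the members' median less that of all genes was 1.09 under each. Over all cells that passed the filter, Slamf7 changed direction, to -0.21. Of its 80 and 119 UMIs over all cells, 20 and 75 were in microglia-like cells and 48 and 32 in the class II-led cluster 7, which held 2.10% of vehicle and 0.844% of corticosterone cells. Without the filter on low counts 18006 genes were measured, of which 4.99% were at least 2-fold higher and 14.6% at least 2-fold lower. Differences in the share of cells with a UMI grew with the depth kept, for Slamf8 from 1.44 percentage points at 500 UMIs to 10.99 without thinning. No paired analysis was possible because the labels carry no replicate numbers and each group has 1 library.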
